A study of Mus musculus with 12 samples.

Results

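The integrin subunits described here are 10 genes, the α chains Itga1, Itga2, Itga4, Itga5, Itga8, Itga11 and Itgav and the β chains Itgb1, Itgb3 and Itgb5. They were taken by gene symbol from the 52636 genes of the deposited expression tables, 1 row per symbol in each table. The rule itself used no measured value, but the 10 members were chosen with earlier results of these data known. Bulk RNA-seq had been done on mouse airway smooth muscle cells (SMCs) and on lung PDGFR-β+ cells after transfection with scrambled RNA (Scr) or with siRNA against Klf4 (siKlf4), to ask how silencing this transcription factor alters each mesenchymal cell type. Each of the 4 groups held 3 libraries, 12 in all, and values were TPM, a measure of transcript abundance scaled for gene length and for the total of the library.

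Both cell types were labelled C57BL/6, with Scr libraries labelled WT and siKlf4 libraries labelled Klf4 KD. The PDGFR-β+ cells came from lungs of mice labelled 12-weeks old, and per the study's methods were cells carrying a Cre-activated reporter (Zs), sorted from tamoxifen-induced Pdgfrb-CreERT2, ROSA26R(Zs/+) mice, while the labels name no reporter for these libraries. The SMCs were 1 purchased line from CellBiologics, named as tracheal in its source label and as lung airway in its titles, with no age given. For both cell types the methods give 50 nM siRNA or Scr RNA for 6 h and then 72 h of culture in SMC medium, and name more than 1 transfection reagent and siRNA supplier without saying which served these libraries. The study describes the 3 libraries of a group as independent experiments. All cells were grown and transfected in culture, so no group models the intact lung. Among SMC columns, 2 (1 of each treatment) lack a replicate number and have names of another form than the 4 numbered ones, and they are called the unnumbered libraries. In bulk RNA, fewer cells of a kind and less RNA per cell cannot be told apart.

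Integrins are cell surface receptors made of an α and a β chain that tie the extracellular matrix to the actin cytoskeleton. The partner chain sets the ligand. The β1 chain (Itgb1) pairs with the most α chains, among them the collagen receptors α1 (Itga1), α2 (Itga2) and α11 (Itga11), the fibronectin receptor α5 (Itga5), the nephronectin receptor α8 (Itga8) and α4 (Itga4), which binds fibronectin and VCAM-1. The αv chain (Itgav) pairs with β1, β3 (Itgb3) and β5 (Itgb5), recognizes RGD motifs in vitronectin and fibronectin, and in fibrosis is known for releasing TGF-β from its latent complex.

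Promoter windows are shown for the 3 subunits that rose most clearly in SMCs or moved in opposite directions in the cell types (Itga5, Itgav, Itgb1) and for the member with the most CACCC sites, Itga4. Each window spans 250 bases before to 50 bases after the annotated start, from RefSeq on GRCm38.p6, printed 5′ to 3′ on the strand of the gene. Capitals mark CACCC or its reverse complement GGGTG, the core of the sequence that Krüppel-like factors bind, and GGGCGG or its reverse complement CCGCCC, the GC box. The windows are at chr15:103366742-103367041 (reverse strand) for Itga5, chr2:83724147-83724446 (forward strand) for Itgav, chr8:128685404-128685703 (forward strand) for Itgb1 and chr2:79255176-79255475 (forward strand) for Itga4.
Itga5: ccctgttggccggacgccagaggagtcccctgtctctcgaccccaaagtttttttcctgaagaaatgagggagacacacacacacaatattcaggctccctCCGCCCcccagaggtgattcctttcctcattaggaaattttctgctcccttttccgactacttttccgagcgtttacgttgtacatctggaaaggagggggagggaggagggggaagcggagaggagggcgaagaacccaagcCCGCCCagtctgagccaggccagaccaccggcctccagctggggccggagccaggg
Itgav: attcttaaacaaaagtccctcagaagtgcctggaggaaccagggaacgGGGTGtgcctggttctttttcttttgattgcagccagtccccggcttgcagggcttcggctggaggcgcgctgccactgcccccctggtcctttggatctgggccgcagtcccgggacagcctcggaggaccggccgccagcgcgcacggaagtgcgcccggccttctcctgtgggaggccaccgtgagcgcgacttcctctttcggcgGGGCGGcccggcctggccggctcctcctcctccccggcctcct
Itgb1: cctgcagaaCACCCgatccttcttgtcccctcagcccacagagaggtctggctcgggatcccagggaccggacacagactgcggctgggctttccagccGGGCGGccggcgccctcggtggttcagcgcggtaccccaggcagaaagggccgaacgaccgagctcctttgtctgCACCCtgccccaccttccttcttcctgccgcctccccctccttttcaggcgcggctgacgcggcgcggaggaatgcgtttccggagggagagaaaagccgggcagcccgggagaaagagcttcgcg
Itga4: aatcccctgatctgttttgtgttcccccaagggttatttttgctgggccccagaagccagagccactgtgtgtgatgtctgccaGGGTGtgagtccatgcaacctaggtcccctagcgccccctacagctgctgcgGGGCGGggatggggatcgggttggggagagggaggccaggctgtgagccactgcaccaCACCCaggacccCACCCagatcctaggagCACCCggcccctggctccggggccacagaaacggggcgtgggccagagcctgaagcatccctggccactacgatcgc

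RefSeq windows matched 9 of the 10 subunits by symbol, without Itgb3. CACCC on either strand was in 6 of the 9, against 57.5% of all 32851 promoters, with 4 sites in Itga4, 2 in Itga1 and Itgb1, and 1 in Itga2, Itgav and Itgb5. The GC box was in 6 of the 9, against 35.7% of all promoters, with 3 in Itgb5, 2 in Itga5 and 1 in Itga2, Itga4, Itgav and Itgb1. The Itga5 window held 0 CACCC sites, and those of Itga8 and Itga11 held neither motif. Such matches describe the letters only.

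Klf4 fell with siKlf4 in both cell types. In SMCs it was at 96.3, 95 and 89.6 TPM in the Scr libraries (the value listed last for SMCs is always the unnumbered library) and at 16.3, 18.8 and 26.5 TPM in the siKlf4 libraries. In PDGFR-β+ cells it was at 144, 146 and 134 TPM with Scr and at 12.3, 13.8 and 12.8 TPM with siKlf4. The log2 fold change of TPM + 1 was -2.16 in SMCs (limma, Benjamini-Hochberg adjusted p = 0.000752) and -3.35 in PDGFR-β+ cells (limma adjusted p = 3.32e-06), and the fall was 1.19 log2 units smaller in SMCs (limma interaction, adjusted p = 0.00069).

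The labels were read against marker genes. The summed level of 8 smooth muscle markers, led by Acta2, was 1500 to 2280 TPM in Scr SMCs and 5550 to 6410 TPM in Scr PDGFR-β+ cells. The culture labelled SMC was thus lower in this sum, although 7 of the 8 averaged at least 1 TPM in both. Acta2 (1370 and 4370 TPM) and Tagln (425 and 1510 TPM) held most of it. Cnn1, Myh11, Lmod1 and Smtn averaged lower in Scr SMCs too, while Des (2.77 and 2.08 TPM) and Myocd (0.143 and 0.0266 TPM) averaged higher. With siKlf4 the sum was 3410 to 4170 TPM in SMCs, where 6 of the 7 markers tested rose and 0 fell. It was 4710 to 5000 TPM in PDGFR-β+ cells, where 3 rose and 3 fell. Of all genes tested, 15.6% were called higher and 12.9% lower in SMCs, and 25.3% and 15.3% in PDGFR-β+ cells. Des (2.08 and 0.756 TPM in PDGFR-β+ cells) reached the minimum mean of 1 TPM there only through Scr, so it could be called only as lower. The part of the smooth muscle markers in the integrin values was not tested. Leukocyte markers, 7 genes, summed to 28.6 to 29.9 TPM in Scr and 18.7 to 22.8 TPM in siKlf4 PDGFR-β+ cells, and to 4.44 to 7.19 TPM in SMCs. In PDGFR-β+ cells Cd3e was at 0 and Ptprc at 0.119 to 0.266 TPM. Lyz2, the highest there, was at 9.49 to 20.3 TPM and Cd68 at 6.04 to 9.62 TPM. With siKlf4 Lyz2 was called lower (limma adjusted p = 0.00538), as was Csf1r, at 2.28 and 0.775 TPM on average (0.0138). Csf1r reached the minimum mean of 1 TPM only through the Scr libraries, so it could be called only as lower. Cd68 did not pass (limma adjusted p = 0.29). The part of these markers in the integrin values was not tested. The 6 endothelial markers summed to at most 18.5 TPM in a library, and the 6 epithelial markers to at most 1.30 TPM. The 7 lung mesenchyme markers, led by Col1a1 or Col1a2, summed to 3780 to 4480 TPM in Scr and 3080 to 4120 TPM in siKlf4 PDGFR-β+ cells. In SMCs they summed to 3620 to 4090 TPM with Scr and 3140 to 3460 TPM with siKlf4. In each cell type 3 were called lower and 0 higher, to be read against the same shares of all genes.

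The 10 subunits spanned a wide range of levels in Scr cells, and their order was similar in the cell types. Itgb1 stood far above the rest, at 1300 ± 56.9 TPM (SD, n = 3 here and for every mean) in SMCs and 1670 ± 44.3 TPM in PDGFR-β+ cells. In SMCs Itga5 (158 ± 24.3 TPM) and Itgb5 (153 ± 31.6 TPM) followed with overlapping libraries, then Itga8 at 65.0 ± 3.59 TPM and Itgav at 48.7 ± 2.40 TPM, which did not overlap with their neighbors. Itga1 (26.2 ± 6.90 TPM) and Itga11 (20.7 ± 4.71 TPM) overlapped, as did Itga2 (3.29 ± 1.46 TPM) with Itgb3 (1.40 ± 0.456 TPM) and Itgb3 with Itga4 (0.622 ± 0.433 TPM). In PDGFR-β+ cells Itgb5 (280 ± 8.86 TPM), Itga5 (220 ± 41.6 TPM) and Itgav (121 ± 16 TPM) came next after Itgb1 without overlap. Itga8 (59.2 ± 9.58 TPM) and Itga11 (52.1 ± 14.1 TPM) overlapped, Itga1 (20.9 ± 2.95 TPM) and Itga2 (8.97 ± 0.728 TPM) stood apart from their neighbors, and Itgb3 (1.86 ± 0.275 TPM) overlapped with Itga4 (1.71 ± 0.454 TPM).

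Set side by side without a test, since the cell types were deposited in separate tables, 7 subunits were lower in every Scr SMC library than in any Scr PDGFR-β+ library. The share of all genes separated in this way was not counted, so this number is not read as a trait of the subunits. The ratio of means, PDGFR-β+ over SMC, was 2.75-fold for Itga4, 2.72-fold for Itga2, 2.52-fold for Itga11, 2.49-fold for Itgav, 1.83-fold for Itgb5, 1.39-fold for Itga5 and 1.28-fold for Itgb1. The unnumbered Scr SMC library weighed on the low members, and without it the ratio was 2.01-fold for Itga4 and 2.18-fold for Itga2. Itga1, Itga8 and Itgb3 overlapped between the cell types. Depth is not known from TPM, so the precision of low members such as Itga4 and Itgb3 rests on their spread alone.

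**Figure D1:**
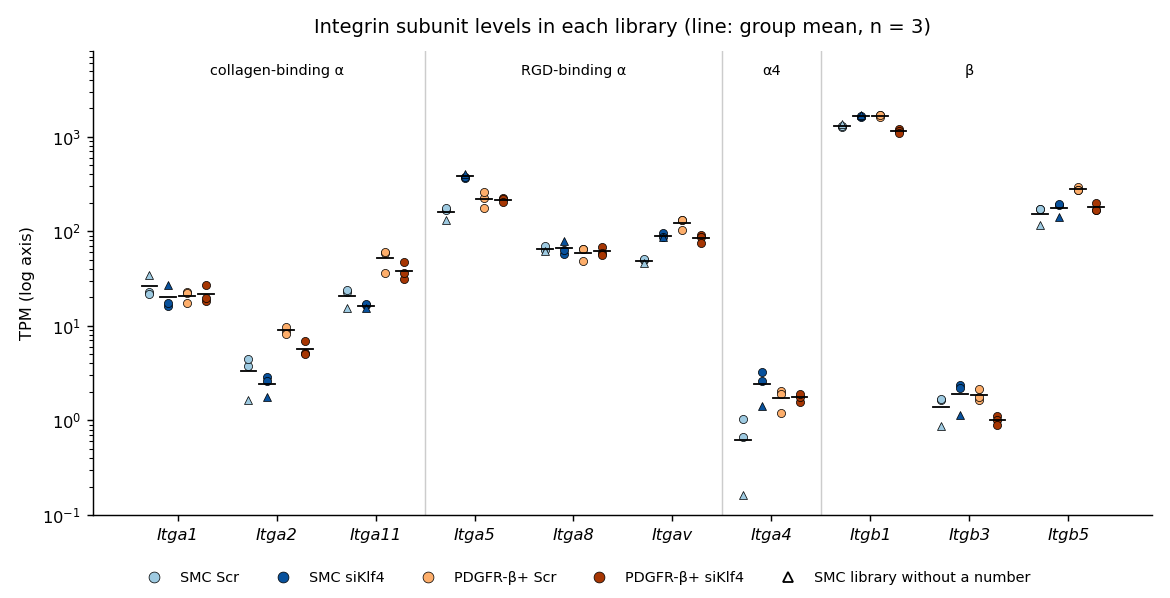
TPM of the 10 integrin subunits on a log axis, 1 point per library and a line at each mean of 3, by cell type and treatment, with triangles for the 2 unnumbered SMC libraries. Itga5 and Itgav are higher in all siKlf4 than in all Scr SMC libraries, and all 3 β chains are lower in all siKlf4 than in all Scr PDGFR-β+ libraries.

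In SMCs siKlf4 raised 4 of the 10 subunits and lowered none. Of the 4, Itga4 passed the filter on low values only through siKlf4 and could enter the count only as higher, and the count was 3 with no filter or with a minimum mean of 5 TPM. The 4 were the fibronectin receptor chain Itga5, the RGD-binding chain Itgav, the fibronectin and VCAM-1 receptor chain Itga4 and the shared chain Itgb1, while the collagen-binding chains Itga1, Itga2 and Itga11 passed in neither direction. Of all 13709 genes tested in SMCs, 15.6% were called higher and 12.9% lower at a limma adjusted p under 0.05. The libraries of the same 4 subunits did not overlap between treatments, a separation that 25.6% of genes tested showed upward and 21.5% downward. The median log2 fold change was 0.23 over the 10 subunits and 0.017 over all genes tested.

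Itga5 was at 168, 176 and 131 TPM with Scr and at 365, 375 and 400 TPM with siKlf4. Every siKlf4 library was above every Scr library by more than the spread of either group, and the library lowest with Scr and the one highest with siKlf4 were both unnumbered. The log2 fold change was 1.27 ± 0.117 (SE; limma adjusted p = 0.00104), from 158 ± 24.3 to 380 ± 18.3 TPM, and with the 4 numbered libraries alone it was 1.10 (limma adjusted p = 0.00276).

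Itgav was at 49.3, 50.8 and 46.1 TPM with Scr and at 94.8, 87.4 and 86.3 TPM with siKlf4. The groups stood apart and each was tight. Its log2 fold change was 0.86 ± 0.0728 (SE; limma adjusted p = 0.000956). Itgb1 was at 1250, 1290 and 1360 TPM with Scr and at 1600, 1640 and 1710 TPM with siKlf4. The shift was modest in fold, 0.34 ± 0.0645 on the log2 scale (limma adjusted p = 0.00937), with no overlap between libraries.

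Itga4 was a low transcript, at 1.03, 0.675 and 0.164 TPM with Scr and at 3.24, 2.64 and 1.41 TPM with siKlf4. It reached the minimum mean of 1 TPM only through the siKlf4 libraries, so it could be tested only because those were higher. The unnumbered library was lowest in each group. The log2 fold change of TPM + 1 was 1.08 ± 0.288 (SE; limma adjusted p = 0.0306), and it was 1.97 with a pseudocount of 0.1. Its call was lost when any of 4 libraries was left out, with limma adjusted p up to 0.0981 without siKlf4 replicate 2, and with no filter on low values (limma adjusted p = 0.0714). The oppositely transcribed neighbor Cerkl, which overlaps its 3′ end, averaged 3.24 TPM with Scr and 1.62 TPM with siKlf4. The study's methods describe strand-specific libraries, while how the counting used strand is not given in the sources used here.

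For 2 of the 3 collagen-binding chains the call turned on the unnumbered libraries. Itga1 was at 22.8, 21.6 and 34.1 TPM with Scr and at 16.4, 17.6 and 26.8 TPM with siKlf4. The unnumbered library was the highest of its group both times, and the groups overlapped because of it. Its log2 fold change was -0.36 ± 0.229 (SE; limma adjusted p = 0.28), while with the numbered libraries alone it was called lower at -0.37 (limma adjusted p = 0.0332), as it was with a term for the naming of the columns (-0.36, limma adjusted p = 0.00743). Itga11 was at 22.8, 23.9 and 15.3 TPM with Scr and at 16.8, 16.9 and 15.4 TPM with siKlf4. The numbered libraries of the treatments stood apart and the unnumbered ones did not. Its log2 fold change was -0.30 (limma adjusted p = 0.222), and it was called lower with the numbered libraries alone at -0.45 (limma adjusted p = 0.0162). Itga2 was at 1.65 to 4.46 TPM with Scr and at 1.77 to 2.88 TPM with siKlf4, overlapping, with a limma adjusted p of 0.507.

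The remaining 3 subunits did not pass. Itga8, the nephronectin receptor chain, was at 62.3 to 69.1 TPM with Scr and at 56.8 to 78.4 TPM with siKlf4, and its log2 fold change of 0.015 (95% interval -0.27 to 0.30) was below 0 under quantile normalization and with the numbered libraries alone. Itgb3 was at 0.873 to 1.68 TPM with Scr and at 1.14 to 2.36 TPM with siKlf4 (log2 fold change 0.27, interval -0.30 to 0.83). Itgb5 was at 173, 170 and 117 TPM with Scr and at 188, 195 and 140 TPM with siKlf4. Within the numbered and within the unnumbered libraries siKlf4 was higher for both β chains. The groups overlapped all the same, and Itgb5 passed the test only in the fit with a term for the naming of the columns (log2 fold change 0.19, limma adjusted p = 0.0202, against 0.467 without it).

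In PDGFR-β+ cells siKlf4 lowered 5 of the 10 subunits and raised none. All 3 β chains fell, with the αv chain that pairs with each of them and the collagen receptor chain Itga2, whereas Itga5, Itga4 and Itga8 showed little difference. Of all 13694 genes tested in these cells, 15.3% were called lower and 25.3% higher at a limma adjusted p under 0.05. The libraries of the same 5 subunits did not overlap, as for 19.8% of genes tested downward and 33.9% upward. The median log2 fold change was -0.46 over the 10 subunits and 0.097 over all genes tested. With median-ratio scaling the median of all genes moved from 0.097 to -0.0032 and the calls from 3461 higher and 2098 lower to 2639 higher and 2977 lower, and the same 5 subunits were called lower.

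Itgb1 was at 1690, 1620 and 1700 TPM with Scr and at 1200, 1150 and 1090 TPM with siKlf4. The groups stood far apart, and the mean fell to 68.7% of Scr. The log2 fold change was -0.54 ± 0.0661 (SE; limma adjusted p = 0.000731). Itgb5 was at 291, 275 and 275 TPM with Scr and at 200, 166 and 169 TPM with siKlf4, again without overlap. Its log2 fold change was -0.65 ± 0.0861 (SE; limma adjusted p = 0.00102). The third β chain, Itgb3, a partner of αv and of the platelet chain αIIb, was far lower, at 2.17, 1.64 and 1.76 TPM with Scr and at 1.12, 1.02 and 0.905 TPM with siKlf4. Its log2 fold change of -0.50 ± 0.150 (SE; limma adjusted p = 0.0317) missed the threshold when any of 5 libraries was left out, with adjusted p up to 0.11 without Scr replicate 1. The call of Itgb3 was lost also with the replicate block (limma adjusted p = 0.0535). By qRT-PCR, another measure of mRNA, the study found Itgb3 unchanged by Klf4 knockdown in PDGFR-β+ cells.

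Itgav was at 131, 130 and 103 TPM with Scr and at 91.0, 87.9 and 75.6 TPM with siKlf4. The lowest Scr library was above the highest siKlf4 library. The log2 fold change was -0.51 ± 0.118 (SE; limma adjusted p = 0.012). Itga2 was at 8.89, 9.74 and 8.29 TPM with Scr and at 6.97, 5.18 and 5.09 TPM with siKlf4. The groups did not overlap, and the log2 fold change was -0.57 ± 0.136 (SE; limma adjusted p = 0.0132). In 1 fit over all 12 libraries, which shares the spread between cell types, Itga2 and Itgb3 missed the threshold (limma adjusted p = 0.0749 and 0.0593) and 3 subunits were called lower.

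Itga5 was at 223, 260 and 177 TPM with Scr and at 223, 219 and 206 TPM with siKlf4. All siKlf4 values lay inside the Scr range, and the log2 fold change was -0.013 (95% interval -0.32 to 0.30), with adjusted p = 0.948 in limma. Itga8 was at 48.1 to 65.1 TPM with Scr and at 56.2 to 68.6 TPM with siKlf4, Itga1 at 17.5 to 22.7 and 18.4 to 27.2 TPM, and Itga4 at 1.20 to 2.06 and 1.56 to 1.90 TPM. These 3 had log2 fold changes of 0.052, 0.041 and 0.033, which turned below 0 with median-ratio scaling. Itga11 was at 59.4, 35.8 and 61.0 TPM with Scr and at 47.7, 31.2 and 36.4 TPM with siKlf4. The Scr libraries of Itga11 were widely spread and overlapped with siKlf4, and its log2 fold change of -0.41 (95% interval -0.95 to 0.12) did not pass (limma adjusted p = 0.189). It was called lower with the replicate block (limma adjusted p = 0.0454) and in 1 of the 6 fits with a library left out (0.0251).

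**Figure D2:**
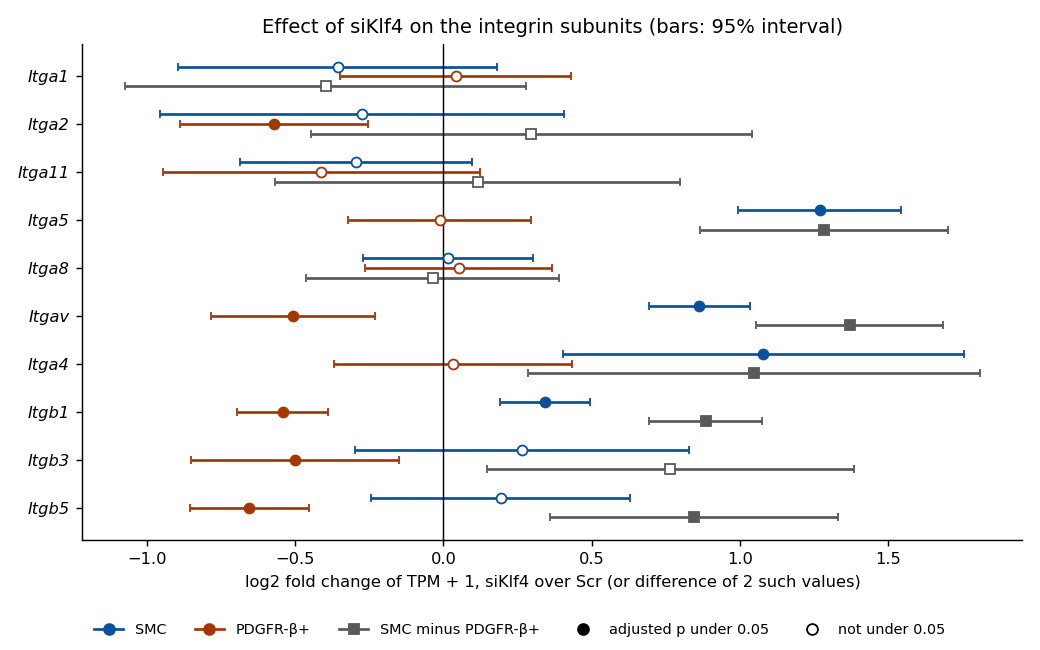
Log2 fold changes of TPM + 1 with siKlf4 over Scr for each subunit in SMCs and in PDGFR-β+ cells, and their difference, with 95% limma intervals and filled symbols where the adjusted p is under 0.05. Itgav and Itgb1 lie above 0 in SMCs and below 0 in PDGFR-β+ cells, and 5 differences are filled, all above 0. That of Itga4 could be tested only because its siKlf4 SMC libraries were higher.

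For 5 subunits the response to siKlf4 was not the same in SMCs and PDGFR-β+ cells, each with the higher value in SMCs. Of the 5, Itga4 passed the filter on low values in SMCs only through siKlf4. It could be tested only because those libraries were higher. Tested as an interaction over all 12 libraries, 14.5% of 13032 genes were called in this direction and 18.5% in the other, in which no integrin subunit of the 10 was called. Itgav differed by 1.37 ± 0.144 (SE) log2 units (limma adjusted p = 4.62e-05) and Itgb1 by 0.89 ± 0.0870 (limma adjusted p = 3.05e-05), and both were called in opposite directions in the cell types. Itga5 differed by 1.28 ± 0.191 (limma adjusted p = 0.000449) and Itga4 by 1.05 ± 0.348 (limma adjusted p = 0.0379), with a call in SMCs and not in PDGFR-β+ cells. Itgb5 differed by 0.85 ± 0.222 (limma adjusted p = 0.0125) with a call in PDGFR-β+ cells and not in SMCs.

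Itgb3 went the same way by 0.77 ± 0.283 log2 units and missed the threshold (limma adjusted p = 0.057). It passed with median-ratio scaling (limma adjusted p = 0.0416), with quantile normalization (0.0177) and with the numbered SMC libraries alone (0.0156). It missed with a pseudocount of 0.1 (limma adjusted p = 0.0622) and with no filter on low values (0.0838), and leaving out 1 library gave limma adjusted p from 0.0132 to 0.128, under 0.05 only without the unnumbered siKlf4 SMC library. The difference for Itga4 did not pass with a pseudocount of 0.1 (limma adjusted p = 0.0522), and it was lost when any of 9 libraries was left out, with adjusted p up to 0.0889 without SMC siKlf4 replicate 2. For Itga1, Itga2, Itga8 and Itga11 the difference lay between -0.40 and 0.30 log2 units with an interval on both sides of 0. The median difference was 0.81 over the 10 subunits and -0.078 over all genes tested.

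TPM is per length, so the levels of the chains could be added within a library. The 10 subunits summed to 1780 ± 27.6 TPM with Scr and 2400 ± 60.7 TPM with siKlf4 in SMCs, and to 2440 ± 50.6 and 1760 ± 105 TPM in PDGFR-β+ cells. In both cases the libraries did not overlap between treatments (exact permutation p = 0.1, two-sided, the smallest that 3 against 3 allows). The 18 α chains looked for summed to 381 ± 28.4 TPM with Scr and 641 ± 29.9 TPM with siKlf4 in SMCs, while the 8 β chains summed to 1460 ± 28.4 and 1830 ± 34.3 TPM. In PDGFR-β+ cells the α sum overlapped between treatments (526 ± 44.3 and 467 ± 31.3 TPM), and the β sum was 1960 ± 48.5 TPM with Scr and 1330 ± 71.7 TPM with siKlf4.

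Itgb1 transcript relative to its 12 α partners was lower with siKlf4 in both cell types. The ratio was 3.29, 3.24 and 3.98 in Scr SMCs and 2.59, 2.63 and 2.55 in siKlf4 SMCs. It was 3.10, 2.97 and 3.61 in Scr and 2.41, 2.51 and 2.5 in siKlf4 PDGFR-β+ cells. The Scr values were the more spread in both cell types and did not overlap with siKlf4 (exact permutation p = 0.1, two-sided, the smallest allowed). The level of Itgb1 itself rose in SMCs and fell in PDGFR-β+ cells.

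Itga5 took 41.3 ± 3.47% of the summed α chain TPM in Scr SMCs and 59.3 ± 0.426% in siKlf4 SMCs, with no overlap. The shares of Itga8 (17.1 ± 0.731% and 10.3 ± 1.24%), Itga1 (6.98 ± 2.41% and 3.14 ± 0.721%), Itga11 (5.38 ± 0.878% and 2.56 ± 0.247%) and Itga2 (0.847 ± 0.332% and 0.382 ± 0.107%) were lower in every siKlf4 library, although none of these 4 was called as a level. The Itgav share overlapped, at 12.8 ± 0.332% and 14.0 ± 1.25%. In PDGFR-β+ cells the Itga5 share overlapped (41.7 ± 5.00% and 46.3 ± 1.63%), and that of Itgav was lower with siKlf4 (23.0 ± 1.17% and 18.1 ± 0.998%), as was that of Itga2 (1.71 ± 0.0818% and 1.22 ± 0.144%). Among β chains Itgb1 held 85.3 ± 0.397% to 89.9 ± 1.77% of the TPM across the group means, with overlap between treatments. Shares of a total are not independent of each other.

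**Figure D3:**
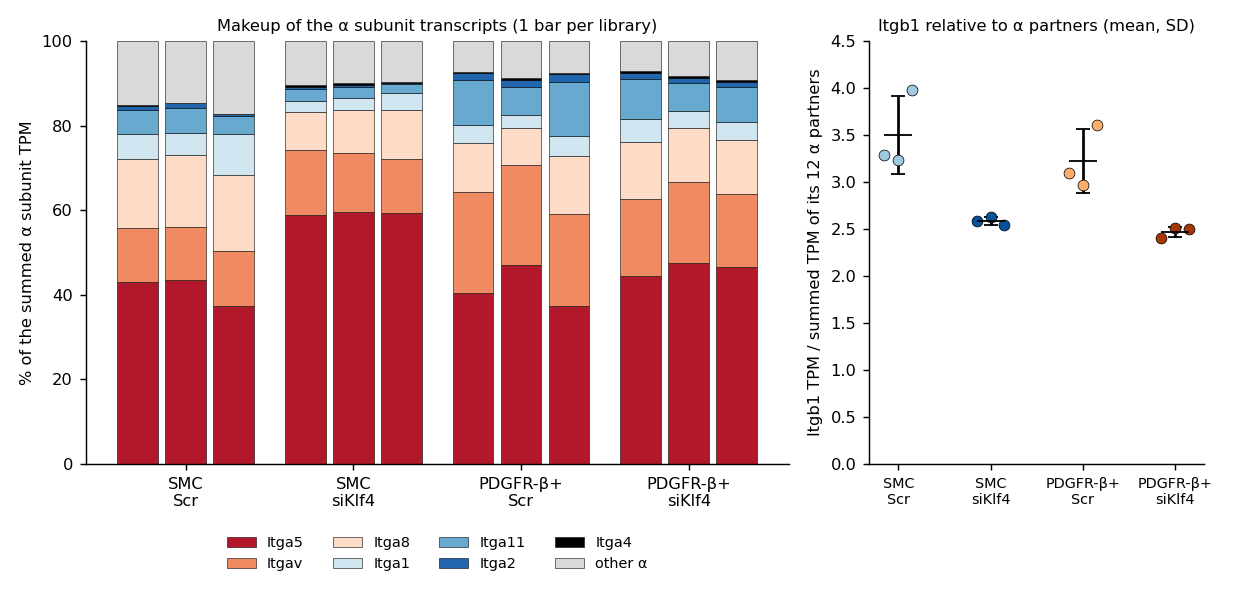
Left, the percent of the summed α chain TPM held by each subunit, 1 bar per library in the order numbered then unnumbered for SMCs. Right, Itgb1 TPM over the summed TPM of its 12 α partners per library with mean and SD. Itga5 reaches 59.3% in siKlf4 SMCs, and the ratio lies at 2.41 to 2.63 in all siKlf4 libraries and at 2.97 to 3.98 in all Scr libraries.

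The other 16 integrin subunits of the mouse were mostly low. In SMCs 8 reached 1 TPM on average, of which 3 were called higher and 2 lower, against 15.6% and 12.9% of all genes tested. The laminin receptor chains Itga3 (30.1 ± 0.473 to 37.0 ± 0.948 TPM, limma adjusted p = 0.0186) and Itga6 (5.25 ± 0.554 to 7.94 ± 0.598 TPM, limma adjusted p = 0.017) rose with Itga9, a receptor chain for tenascin-C and osteopontin (5.26 ± 0.687 to 8.48 ± 0.464 TPM, limma adjusted p = 0.0115). The platelet chain Itga2b (8.06 ± 0.922 to 4.19 ± 0.0907 TPM, limma adjusted p = 0.00396) and the muscle laminin receptor chain Itga7 (3.29 ± 0.193 to 1.53 ± 0.182 TPM, limma adjusted p = 0.00703) fell. With the replicate block the calls of Itga3, Itga6, Itga9 and Itga7 were lost (limma adjusted p = 0.0776, 0.102, 0.0525 and 0.0576). That of Itga6 was lost also with the numbered libraries alone (limma adjusted p = 0.0569). The collagen receptor chain Itga10 (6.84 ± 1.49 to 4.45 ± 0.588 TPM), Itgb4 and Itgb8 did not pass.

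In PDGFR-β+ cells 8 of the 16 were tested, with 1 called higher and 1 lower, against 25.3% and 15.3% of all genes tested. The 2 called subunits were both αv partners near the filter. Itgb8 was at 0.718 ± 0.201 TPM with Scr and 2.07 ± 0.134 TPM with siKlf4 and passed the filter through siKlf4 alone (log2 fold change 0.84, limma adjusted p = 0.00475). Itgb6, the epithelial partner of αv, was at 2.00 ± 0.635 TPM with Scr and 0.0492 ± 0.0483 TPM with siKlf4 and passed it through Scr alone (log2 fold change -1.49, limma adjusted p = 0.00119). The effect differed between cell types for Itga6 (1.02 log2 units, limma adjusted p = 0.00397) and Itga9 (0.52, limma adjusted p = 0.017), higher in SMCs, and for Itga10 (-0.76, limma adjusted p = 0.0416) and Itgb8 (-0.61, limma adjusted p = 0.0367), lower in SMCs, and the calls of Itga10 and Itgb8 were lost under median-ratio or quantile scaling, respectively. The leukocyte chains Itgad, Itgae, Itgal, Itgam and Itgax were at or near 0, while Itgb2, the β chain of leukocytes, was at 1.40 ± 0.445 TPM in Scr and 0.185 ± 0.131 TPM in siKlf4 PDGFR-β+ cells, under the filter for a test.

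Genes whose products work with integrins were counted from lists of 26 adhesion complex genes, 17 integrin ligands and 9 genes of latent TGF-β. Of 24 adhesion complex genes tested in SMCs, 11 were called higher and 3 lower, with a median log2 fold change of 0.38. In PDGFR-β+ cells 6 were called higher and 4 lower of 24, with a median of 0.14. Over all genes tested 15.6% were called higher and 12.9% lower in SMCs, and 25.3% and 15.3% in PDGFR-β+ cells, so the PDGFR-β+ counts of this list were near the background. The effect was higher in SMCs for 6 and lower for 2 of the 24, against 14.5% and 18.5% of all genes tested. Fermt2 (kindlin-2), which activates integrins by binding the β tail, rose in both, from 84.0 ± 0.143 to 180 ± 5.62 TPM in SMCs (limma adjusted p = 0.000437) and from 185 ± 2.96 to 239 ± 7.19 TPM in PDGFR-β+ cells (limma adjusted p = 0.00243), with a difference of 0.72 log2 units (limma adjusted p = 3.51e-05).

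Talin (Tln1), which links the β tail to actin, rose in SMCs (log2 fold change 0.36, limma adjusted p = 0.0111) and in PDGFR-β+ cells (0.31, limma adjusted p = 0.0368), where the call was lost with median-ratio scaling (0.20, limma adjusted p = 0.0904) and with no filter on low values (0.0819). The adaptor Bcar1 rose in both (0.73 and 0.74, limma adjusted p = 0.00147 and 0.00248). Vcl, the talin-binding protein vinculin, and the actin crosslinker Actn1 rose in SMCs (0.72 and 0.76, limma adjusted p = 0.00199 and 0.00937), where Ilk (0.52) and the focal adhesion kinase Ptk2 (0.36) also rose. None of these 4 passed in PDGFR-β+ cells, where Vcl and Ilk were called higher with quantile normalization (limma adjusted p = 0.00656 and 0.0103). Ilk was called there with the replicate block too (limma adjusted p = 0.0394). The interaction passed for Vcl and Actn1 and not for Ilk or Ptk2 (limma adjusted p = 0.0691 and 0.121). Ilk and Ptk2 passed it with median-ratio scaling (limma adjusted p = 0.0127 and 0.0261). In PDGFR-β+ cells the scaffold Nedd9 (1.01) and the tensin Tns3 (0.77) rose and Lims1 (PINCH-1, a partner of Ilk) fell (-0.80). These 3 did not pass in SMCs, but the interaction passed for Tns3 alone, not for Nedd9 or Lims1 (limma adjusted p = 0.088 and 0.512). In siKlf4 SMC replicate 2 Lims1 was at 50.6 TPM, against 155 and 185 TPM in the other 2 libraries.

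Of the 17 ligands, 16 were tested. In SMCs 6 were called higher and 4 lower (median log2 fold change 0.082), and in PDGFR-β+ cells 2 higher and 7 lower (median -0.19), to be read against the same background shares. Thrombospondin-1 (Thbs1), which also activates latent TGF-β, went in opposite directions, at 3790, 3860 and 3410 TPM with Scr and at 6770, 6710 and 6570 TPM with siKlf4 in SMCs, and at 5430, 4390 and 5110 TPM with Scr and at 2460, 1900 and 1910 TPM with siKlf4 in PDGFR-β+ cells. The groups did not overlap in either, and the effects differed by 2.12 log2 units (limma adjusted p = 4.94e-06). The matricellular αv ligands Ccn2 (listed as Ctgf) and Ccn1 (listed as Cyr61) had the same pair of directions, with log2 fold changes of 1.26 and 0.83 in SMCs and -0.27 and -0.34 in PDGFR-β+ cells, all past the threshold. With no filter on low values the Ctgf call in PDGFR-β+ cells was lost (limma adjusted p = 0.121). Fibrillin-1 (Fbn1) fell in PDGFR-β+ cells (-1.30, limma adjusted p = 0.00044) and the collagen chain Col3a1 in SMCs (-1.05, limma adjusted p = 0.00432). Col3a1 did not pass in PDGFR-β+ cells (-0.13, limma adjusted p = 0.691).

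Tenascin-C (Tnc) rose (0.69 and 0.91) and the α8 ligand Npnt fell (-0.68 and -0.70) in both SMCs and PDGFR-β+ cells. In SMCs the call of Npnt was lost with the numbered libraries alone (-0.62, limma adjusted p = 0.0975) and that of Tnc with no filter on low values (limma adjusted p = 0.0812). Fibronectin (Fn1), the ligand of α5β1, was at 3410 to 4860 TPM with Scr and 3870 to 4510 TPM with siKlf4 in SMCs and did not pass there. In PDGFR-β+ cells its log2 fold change was -0.22 (limma adjusted p = 0.138), and it was called lower with median-ratio scaling (-0.33, limma adjusted p = 0.0311) and with the replicate block (limma adjusted p = 0.0472). The α4 ligand Vcam1 did not pass in either cell type. Col1a1 was called lower in PDGFR-β+ cells (-0.63, limma adjusted p = 0.00816) and did not pass in SMCs (-0.23, limma adjusted p = 0.209), where it was called lower with the numbered libraries alone (-0.34, limma adjusted p = 0.0131). By qRT-PCR the study found Col1a1, Col3a1 and Fn1 lower with Klf4 knockdown in PDGFR-β+ cells and unaltered in SMCs. Here Col3a1 was called lower in SMCs alone, and Fn1 was called in neither cell type in the main fit. In PDGFR-β+ cells 7 of the 8 latent TGF-β genes tested were called lower and 1, Tgfb3, higher (median -0.87). Of all genes tested 15.3% were called lower and 25.3% higher there, and 12.9% lower and 15.6% higher in SMCs. In SMCs 2 were called higher (Tgfb1 and Tgfb3) and 2 lower (Ltbp4 and Lrrc32), with a median of -0.16, and with no filter on low values the calls of Tgfb3 and Lrrc32 were lost there (limma adjusted p = 0.0794 and 0.0969).

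Tgfb1, the TGF-β ligand whose latent form αv integrins bind, was at 27.5, 26.3 and 19.8 TPM with Scr and at 52.4, 49.1 and 40.6 TPM with siKlf4 in SMCs, and at 48.8, 51.0 and 50.7 TPM with Scr and at 27.1, 27.1 and 28.2 TPM with siKlf4 in PDGFR-β+ cells. It rose in SMCs and fell in PDGFR-β+ cells without overlap, and the effects differed by 1.78 log2 units (limma adjusted p = 2.5e-05). By qRT-PCR the study found Tgfb1 lower in PDGFR-β+ cells and unchanged in SMCs with Klf4 knockdown. Lrrc32 (GARP), which holds latent TGF-β at the cell surface, was at 102, 109 and 90.8 TPM with Scr and at 21.6, 20.1 and 18.4 TPM with siKlf4 in PDGFR-β+ cells (log2 fold change -2.27, limma adjusted p = 8.8e-06). The latent TGF-β binding proteins Ltbp1 (-1.06) and Ltbp2 (-0.89) and the ligand Tgfb2 (-1.04) fell there also. The effect was higher in SMCs for 5 of the 8 and lower for 0, against 14.5% and 18.5% of all genes tested. These lists were not independent of earlier results of the same libraries.

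**Figure D4:**
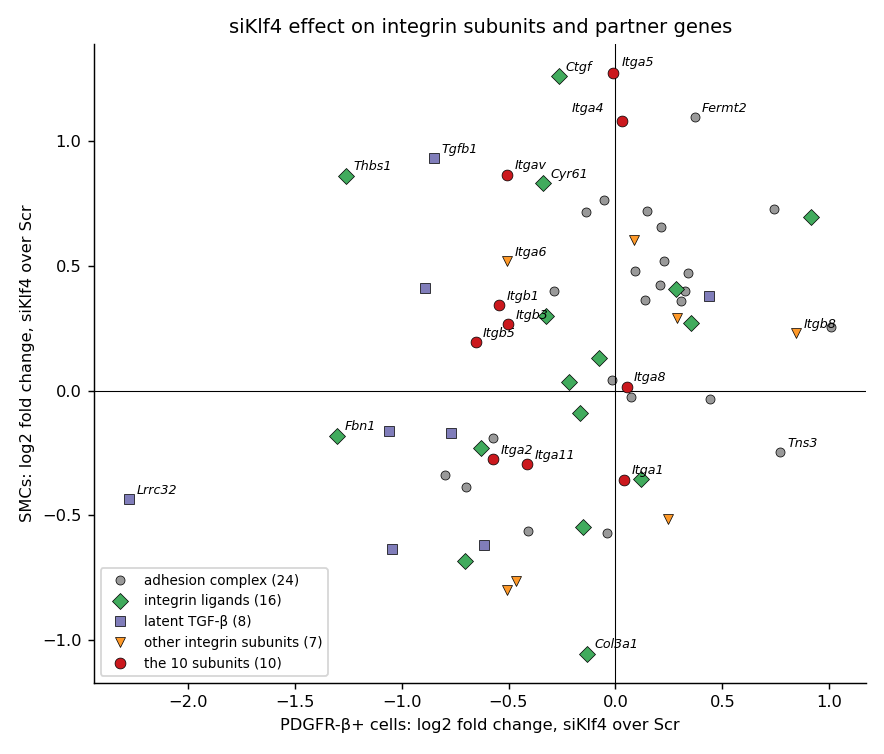
Log2 fold change of TPM + 1 with siKlf4 over Scr in SMCs against that in PDGFR-β+ cells for the 10 subunits and the genes of 4 other lists tested in both, 1 point per gene. Itgav and Itgb1 lie in the upper left quadrant with Thbs1, Tgfb1, Ctgf and Cyr61, and Itga5 lies near 0 on the PDGFR-β+ axis.

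Over all 12 libraries, Itga2, Itga11 and Itga4 covered the widest ranges of log2(TPM + 1), at 2.02, 1.93 and 1.87. The gene pattern nearest to Itga2, by the root mean square difference of centred values over 12 libraries among 14370 genes, was Hist1h2bj (0.162), then Renbp (0.172) and Aplp1 (0.182). Nearest to Itga11 were Gm16046 (0.205), Bnc1 (0.242) and Pdgfd (0.242), and nearest to Itga4 were Dnajb3 (0.196), Arl4c (0.209) and Fhl3 (0.21). Itgb1 and Itga8 covered the narrowest ranges, 0.649 and 0.693.

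On mm10, with GENCODE M21 positions, Itga4 (chr2:79255426-79333123, forward strand) and Itgav (chr2:83724397-83806916, forward strand) lie 4391273 bp apart, and Itga2 (chr13:114833081-114932100) and Itga1 (chr13:114953096-115101964) lie 20995 bp apart on the reverse strand. The neighbors Itga1 and Itga2 had different calls in PDGFR-β+ cells, where Itga2 was lower and Itga1 did not pass, and the difference between them was not tested. Itga5 (chr15:103344286-103366763, reverse strand) and Itgb1 (chr8:128685654-128733200, forward strand) are on other chromosomes. Pelo lies within Itga1 on the same strand and averaged 24.8 to 31.3 TPM across groups, so reads of Itga1 (20.3 to 26.2 TPM) are uncertain where the genes overlap.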

How the data were processed

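The authors aligned reads to mm10 with HISAT2, quantified them with StringTie and tested counts with DESeq2. The authors planned a set yield of sequenced clusters per sample, but the library totals reached are not given in the sources used here. They deposited TPM values, 1 table per cell type, and each library sums to 1000000, so a rise in some genes lowers the share of others. Tables hold 52636 genes (20590 to 21780 above 0 per library), and 0 sample columns were left out. Here limma 3.58.1 (R 4.3.3) was fitted to log2(TPM + 1) by cell type with a variance trend, over genes averaging at least 1 TPM, with Benjamini-Hochberg adjusted p under 0.05 as the threshold. A log2 fold change on this scale understates changes of low genes. The code was checked on simulated data. Named genes were all 10 subunits, Klf4, the tested other subunits, and from each partner list up to 4 of the largest called changes per cell type plus a short preset set. Itgb2, Pelo, Cerkl and the untested leukocyte chains were named after their values were seen. Members and lists were chosen with earlier results of these data known. Alternatives were another pseudocount, filter, scaling, variance model, joint fit, naming term, replicate block and leaving out each library. Intervals are 95%.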

Additional observations from a re-analysis of the deposited data

Results flagged for a closer look

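Results are listed here because the response to siKlf4 was not the same in SMCs and PDGFR-β+ cells by the limma interaction test (adjusted p under 0.05), given as SMC minus PDGFR-β+ on the log2 scale. Only genes taken by the naming rule are listed, and further genes of the partner lists passed the same test, namely Flna, Zyx, Itgb1bp1, Tln2, Col4a2, Col1a2, Mfge8 and Ltbp3. Groups of 3 libraries were too small for a search for single outlying samples. Among the 10 subunits the differences were 1.37 for Itgav, 1.28 for Itga5, 1.05 for Itga4, 0.89 for Itgb1 and 0.85 for Itgb5. Among other subunits they were 1.02 for Itga6, 0.52 for Itga9, -0.76 for Itga10 and -0.61 for Itgb8. Itga4 in SMCs and Itgb8 in PDGFR-β+ cells passed the filter on low values only through siKlf4. Each could be tested only because those libraries were higher. The adhesion complex genes gave 0.82 for Actn1, 0.72 for Fermt2, 0.57 for Vcl and -1.02 for Tns3. The ligands gave 2.12 for Thbs1, 1.52 for Ctgf, 1.17 for Cyr61, 1.12 for Fbn1 and -0.92 for Col3a1. The latent TGF-β genes gave 1.84 for Lrrc32, 1.78 for Tgfb1, 1.30 for Ltbp2 and 0.90 for Ltbp1. Klf4 itself differed by 1.19, the knockdown being deeper in PDGFR-β+ cells. Cell type, source of the cells and depth of the knockdown cannot be told apart in this design.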

How the results depend on the processing

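Over all alternatives, of 518 member values 448 kept their direction and side of the threshold, 24 lost a call, 14 gained one and 32 changed sign, none of which was called. Members called lower in SMCs were 2 with the numbered libraries alone (Itga1, Itga11), 1 with the naming term (Itga1), 1 with the replicate block (Itga11) and 0 to 1 with a library left out. In PDGFR-β+ cells 1 fit over all 12 libraries called 3 members lower. The Itga8 log2 fold change in SMCs was -0.055 with quantile normalization, -0.14 with the numbered libraries alone and -0.14 with the replicate block, and -0.11 to 0.12 with a library left out. In PDGFR-β+ cells median-ratio scaling gave -0.065 for Itga1, -0.038 for Itga4 and -0.058 for Itga8, and quantile normalization gave -0.06, -0.075 and -0.015 for the same genes and 0.0069 for Itga5. Leaving out a library gave -0.13 to 0.14 for Itga1, -0.11 to 0.13 for Itga4, -0.16 to 0.12 for Itga5 and -0.088 to 0.13 for Itga8 there. The difference between cell types for Itga8 was 0.06 with median-ratio scaling, that for Itga11 -0.036 with the numbered libraries alone and -0.036 with the replicate block. With a library left out it was -0.018 to 0.50 for Itga2, -0.16 to 0.10 for Itga8 and -0.078 to 0.36 for Itga11. The cause of these changes was not tested. Whether replicate numbers paired the libraries was not settled. Same-numbered PDGFR-β+ deviations correlated at 0.0732, -0.0158 and 0.0043. With 2 numbered SMC libraries per treatment the deviations mirror each other, so the 2 pairs share 1 value, 0.107. A correlation over all genes cannot exclude pairing for single genes. In PDGFR-β+ cells the replicate block changed the SE of Itgav from 0.118 to 0.0609 and that of Itgb3 from 0.15 to 0.155. The replicate block could be fitted in SMCs on the 4 numbered libraries, where 1500 genes were called higher and 1353 lower, against 2140 and 1825 in the same libraries without it, and in PDGFR-β+ cells it gave 3486 and 2155, against 3461 and 2098. Leaving out an SMC library gave 1157 (without siKlf4 replicate 2) to 2037 genes higher and 1044 (without siKlf4 replicate 3) to 1578 lower. Counts for the 4 partner lists moved by over 1.5 times in 79 of 400 cases, as for latent TGF-β genes lower in SMCs (5 with the naming term, 2 without) and other subunits higher in SMCs (0 with the replicate block, 2 in the same 4 libraries without it, 3 in all 6). Median-ratio scaling moved the split of the interaction calls from 1886 higher and 2411 lower to 2510 and 1913. The files hold no depth, which limits what can be said of members near 1 TPM.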
